A study of Mus musculus with 8 samples.

Results

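The VEGF genes described here are a chosen list of 9, the ligands Vegfa, Vegfb, Vegfc and Pgf, the receptor kinases Flt1, Kdr and Flt4, and the neuropilins Nrp1 and Nrp2. They were read through the probe sets whose platform annotation gave a single gene symbol from this list, which found 22 of the 34945 probe sets with 1 symbol (7 for ligands, 7 for receptors and 8 for neuropilins). Every gene had at least 1 probe set. They were measured in mouse retina at postnatal day 8 (P8) on 8 Affymetrix arrays, each from the pooled retinas of 2 to 3 pups. The 4 Z/Edn2 arrays held Z/Edn2; Six3-Cre pups, in which a Cre-dependent Edn2 transgene, recognised through its lacZ activity in the tail, was combined with Six3-Cre. The 4 Control arrays held Six3-Cre pups without the Z/Edn2 allele, so both groups carried the Cre driver, which acts in the developing neural retina and not in the vessels themselves. The background was mixed, mainly C57BL/6 and 129, in both groups. Edn2 encodes endothelin 2, a secreted peptide. The series asked how endothelin 2 made by the neural retina bears on the growing vessels and their tip cells.

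Vascular endothelial growth factors (VEGFs) are secreted dimers that bind receptor tyrosine kinases on endothelial cells. Kdr (VEGFR2) carries most of the growth and migration signal of VEGF-A, Flt1 (VEGFR1) binds VEGF-A, VEGF-B and placental growth factor and acts largely as a trap for them, and Flt4 (VEGFR3) binds VEGF-C. Neuropilins are co-receptors that bind both VEGFs and class 3 semaphorins, and are also made by neurons. In the retina after birth, astrocytes and other retinal cells release VEGF-A under low oxygen, and vessels grow towards it behind sprouting tip cells.

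Signals were log2 values from robust multi-array averaging (RMA), compared within a probe set only, since probe sets differ in how strongly they bind. The median signal of an array was 6.48 to 6.60. Z/Edn2 3 stood apart, with the highest of these medians, with 9.29 for the 5 prime bioD spike-in against 11.32 to 11.61 elsewhere, and with 6.57 for Xist against 10.16 to 12.35. Control 1 and Z/Edn2 1 had the lowest actin 3 prime minus 5 prime differences, 0.65 and 0.56 on the log2 scale against 1.06 to 1.42 in the other arrays. The 7 measured photoreceptor genes all had mean signals above at least 80.8% of probe sets; they serve as a check of the tissue label. The single Edn2 probe set read 4.04, 4.12, 3.87 and 3.88 in Control and 4.12, 4.25, 4.28 and 4.00 in Z/Edn2, with a log2 fold change of 0.18 ± 0.0975 (SE; limma adjusted p = 1). All member signals were at 5.09 or higher, above the 3 TrpnX control probe sets of the array, which lay between 2.43 and 3.66. Whether the Edn2 probe set covers the transgene was not given in the sources used here.

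Of the 9 genes only Vegfa passed the test, by its brighter probe set, which was 1.96-fold higher in Z/Edn2 retina. Pgf lay higher in all 4 Z/Edn2 arrays without passing, while no receptor and no neuropilin probe set passed in either direction. The test was limma on all 34945 probe sets, with a Benjamini-Hochberg adjusted p under 0.05 as the threshold. By it 1 of 22 member probe sets was higher and 0 were lower, where 0.0887% of all probe sets were higher and 0.0258% lower. At an unadjusted p under 0.05, 2 member probe sets were higher (Vegfa and Pgf) and 0 lower, against 2.84% and 1.2% of all probe sets. Groups did not overlap for 2 of 22, both higher, against 2.32% of all probe sets higher and 0.813% lower. The median log2 fold change was 0.084 over the 7 ligand probe sets, 0.0031 over the 7 of receptors and 0.036 over the 8 of neuropilins, beside 0.018 over all probe sets.

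**Figure D1:**
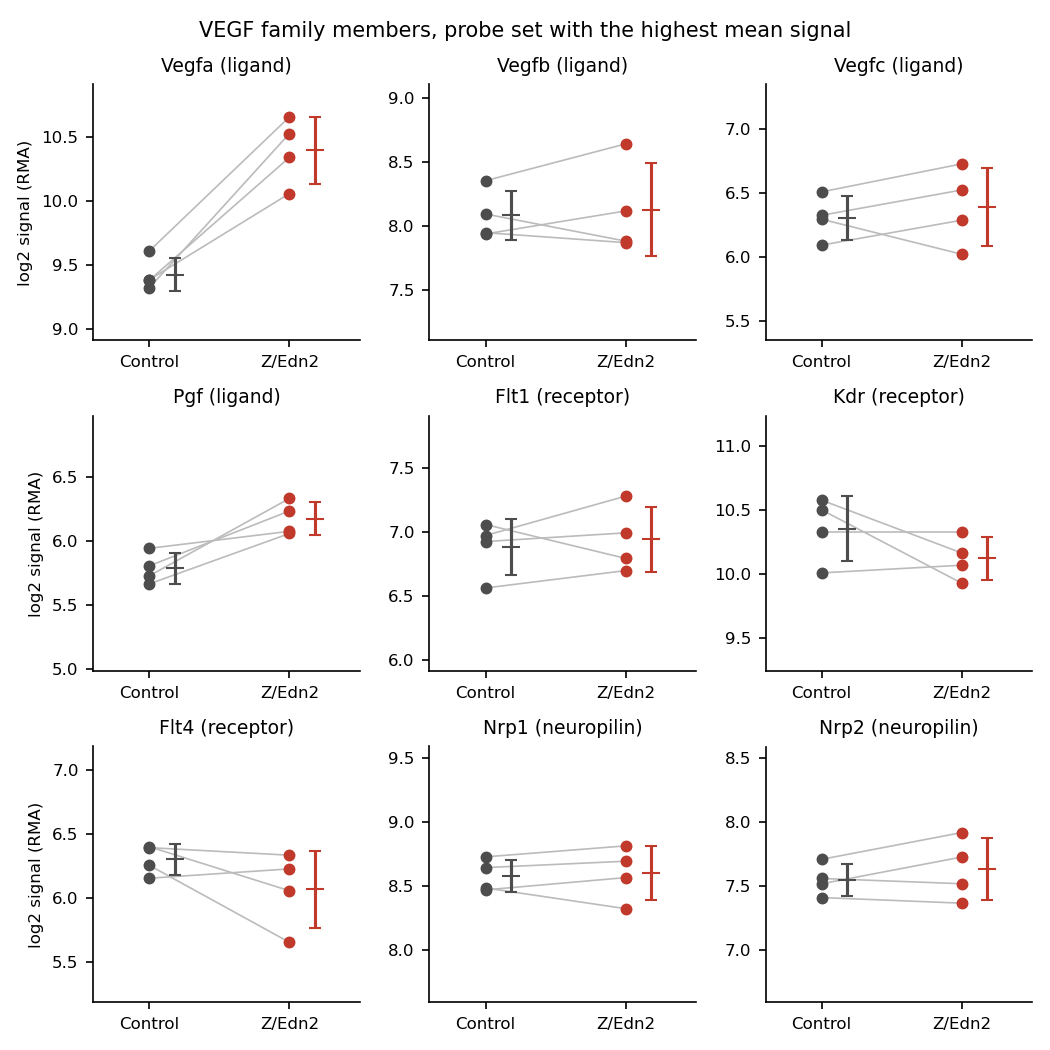
Log2 signal (RMA, y axis, 2 units in every panel) of the probe set with the highest mean for each of 9 genes, with a point per array, grey lines joining arrays of the same replicate number, and bars for mean ± SD (n = 4 each). The Vegfa and Pgf groups do not overlap, and those of the other 7 genes do.

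Vegfa, the ligand of Flt1 and Kdr that directs vessel growth, was read by 2 probe sets. Probe set 1420909_at read 9.325, 9.613, 9.388 and 9.384 in Control 1 to 4 and 10.531, 10.661, 10.062 and 10.345 in Z/Edn2 1 to 4. All Z/Edn2 arrays were higher than every Control array, and the lowest of them was Z/Edn2 3. The means were 9.43 ± 0.127 and 10.40 ± 0.26 (SD, n = 4 each), and the log2 fold change was 0.97 ± 0.133 (SE; limma adjusted p = 0.0402, or 0.012 with the replicate number as a block). The 95% interval ran from 1.60-fold to 2.41-fold. Within same-numbered pairs the difference was 1.21, 1.05, 0.67 and 0.96. The call was lost when any single array but Z/Edn2 3 was left out, although the log2 fold change stayed between 0.885 and 1.085, with an adjusted p of 0.0196 without Z/Edn2 3 and up to 0.188 without Control 3. No omission of a same-numbered pair kept it (0.584 without the pair of replicate 4), and it was also lost with arrays centred on their medians (log2 fold change 0.94, adjusted p = 0.0752).

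The other Vegfa probe set, 1451959_a_at, read 7.871, 7.336, 7.153 and 7.418 in Control and 8.782, 8.005, 7.694 and 7.555 in Z/Edn2. These groups overlapped, since Control 1 exceeded Z/Edn2 3 and Z/Edn2 4. The log2 fold change was 0.56 ± 0.259 (SE; limma adjusted p = 1, or 0.236 with the block), with the Z/Edn2 array higher in 4 of 4 pairs. It was 0.307 without Z/Edn2 1 and 0.716 without Z/Edn2 4. Control 1 and Z/Edn2 1, the arrays with the lowest actin 3 prime minus 5 prime differences, had the highest value of their group here and not in the brighter probe set, and without both of them, in the fit without replicate 1, the log2 fold change was 0.449. The mean of both probe sets differed by 0.77 on the log2 scale and did not pass (limma adjusted p = 0.162).

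Placental growth factor, Pgf, a ligand of Flt1 and not of Kdr, had a single probe set. It read 5.944, 5.666, 5.729 and 5.807 in Control and 6.077, 6.060, 6.334 and 6.236 in Z/Edn2. Every Z/Edn2 array was above every Control array, the nearest being Control 1 and Z/Edn2 2. By mean signal Pgf was among the dimmer probe sets, above 42.1% of them. The log2 fold change was 0.39 ± 0.0972 (SE; limma unadjusted p = 0.00276, adjusted p = 0.594, or 0.287 with the block), and the 95% interval ran from 1.13-fold to 1.53-fold. In the authors' deposited table the unadjusted p was 0.00466 for Pgf and 0.000528 for the brighter probe set of Vegfa.

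The remaining ligands showed no such separation. Vegfb, another Flt1 ligand, read 8.355, 8.095, 7.939 and 7.949 in Control and 8.643, 7.883, 8.119 and 7.871 in Z/Edn2, with 2 pairs higher and 2 lower. Its log2 fold change was 0.044 ± 0.176 (SE; limma adjusted p = 1), with a 95% interval from −0.35 to 0.44, and it turned to −0.12 when Control 1, Z/Edn2 1 and Z/Edn2 3 were omitted together. Control 1 and Z/Edn2 1 again gave the highest values of their groups. Vegfc, the Flt4 ligand, had 3 probe sets with log2 fold changes of 0.084, −0.13 and −0.011, all with adjusted p = 1. Its brightest, 1439766_x_at, ran from 6.094 to 6.510 in Control and from 6.022 to 6.729 in Z/Edn2. Probe set 1440739_at was lower in the Z/Edn2 array of all 4 pairs, with 5.336, 5.618, 5.938 and 5.836 in Control and 5.163, 5.559, 5.753 and 5.753 in Z/Edn2, but by less than the arrays of a group differed among themselves. The third, 1419417_at, ran from 5.286 to 5.690 and from 5.334 to 5.687. The Vegfc probe sets correlated with each other at 0.23 to 0.86 over the 8 arrays after removal of the group means.

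The upstream sequences of the ligands that separated and of Kdr, which did not, are shown because Vegfa is a known target of hypoxia-inducible factors. These factors bind DNA at sites with the core letters ACGTG or GCGTG. RefSeq starts (GRCm38.p6) were found for all 9 members, and the 250 bases before each start were searched on both strands. The core letters of either kind were present in 38.6% of all 32851 such windows (ACGTG in 16.6%, GCGTG in 28.2%). Capitals mark these letters on either strand, written as they read on the gene's strand, and no match overlapped another. Vegfa start 1 lies at chr17:46032378-46032627, minus strand; Vegfa start 2, 7214 bases further into the gene, at chr17:46025164-46025413, minus strand; Pgf start 1 at chr12:85177314-85177563, minus strand; and Kdr at chr5:75978456-75978705, minus strand.
Vegfa start 1: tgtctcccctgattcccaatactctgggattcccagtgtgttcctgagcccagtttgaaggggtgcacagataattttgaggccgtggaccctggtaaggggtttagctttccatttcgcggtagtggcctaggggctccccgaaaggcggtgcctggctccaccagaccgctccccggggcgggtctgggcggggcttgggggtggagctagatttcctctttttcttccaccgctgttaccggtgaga
Vegfa start 2: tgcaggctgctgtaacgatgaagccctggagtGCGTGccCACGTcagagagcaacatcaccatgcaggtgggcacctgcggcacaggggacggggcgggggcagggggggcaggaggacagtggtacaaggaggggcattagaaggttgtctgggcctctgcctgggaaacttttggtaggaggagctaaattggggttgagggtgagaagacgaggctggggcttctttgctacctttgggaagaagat
Pgf start 1: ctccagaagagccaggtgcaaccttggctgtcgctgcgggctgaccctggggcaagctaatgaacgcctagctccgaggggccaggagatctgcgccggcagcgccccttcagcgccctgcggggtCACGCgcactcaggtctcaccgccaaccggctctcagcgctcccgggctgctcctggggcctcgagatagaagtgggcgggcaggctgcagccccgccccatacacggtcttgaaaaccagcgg
Kdr: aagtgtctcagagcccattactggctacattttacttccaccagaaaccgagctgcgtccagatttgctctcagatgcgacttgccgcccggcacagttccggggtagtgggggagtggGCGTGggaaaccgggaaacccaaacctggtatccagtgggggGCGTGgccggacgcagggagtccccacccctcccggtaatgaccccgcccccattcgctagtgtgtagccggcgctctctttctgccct

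The window of the first Vegfa start held neither motif, and that of the second held 1 ACGTG and 1 GCGTG. The second window lies inside the gene, downstream of the first start, so its letters also belong to the stretch transcribed from that start. The first Pgf window held 1 GCGTG, and the second Pgf start had no match. Kdr, whose signal did not separate the groups, held 2 GCGTG. Vegfb and Nrp2 each held 2 GCGTG, Flt1 and Nrp1 1 each, and Vegfc and Flt4 none. These matches describe the letters of these windows only, and bases further than 250 before a start were not searched.

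Kdr, the main VEGF receptor of growing vessels, read 10.010, 10.502, 10.578 and 10.332 in Control and 10.070, 9.929, 10.165 and 10.332 in Z/Edn2. The groups overlapped, with Control 1 below 3 of the Z/Edn2 arrays, and the 2 larger pair differences were −0.57 in replicate 2 and −0.41 in replicate 3. The log2 fold change was −0.23 ± 0.138 (SE; limma adjusted p = 1, or 0.64 with the block). Its 95% interval, 0.69-fold to 1.06-fold, includes 1. It was −0.35 without Control 1 and −0.16 without Control 3, in each case with the same sign. By mean signal Kdr lay above 95.1% of probe sets and the 18 endothelial markers above 22.8% to 68.0%, though probe sets differ in binding. Which cells of the bulk retina gave the Kdr signal was not tested. For any change in Kdr, a change in cell number and one in RNA per cell cannot be told apart.

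Flt1, the VEGF trap, had 4 probe sets whose log2 fold changes pointed both ways, from −0.18 to 0.28, and none passed (limma adjusted p = 1 for each). The probe set with the highest mean, 1451756_at, read 6.560, 7.056, 6.970 and 6.923 in Control and 6.696, 6.791, 7.278 and 6.991 in Z/Edn2, with a log2 fold change of 0.062 ± 0.15 (SE). It turned to −0.044 without Control 1 and to −0.051 without Z/Edn2 3. Probe set 1454037_a_at had the largest difference, from 5.095 to 5.364 in Control and from 5.240 to 5.755 in Z/Edn2 (log2 fold change 0.28 ± 0.132, SE; unadjusted p = 0.0644, or 0.0284 with the block). It was 0.097 when Control 1, Z/Edn2 1 and Z/Edn2 3 were omitted together. Probe set 1419300_at lay the other way at −0.18 ± 0.194, with 6.450 to 7.376 in Control and 6.500 to 6.976 in Z/Edn2. It was −0.338 without Control 1 and −0.030 without Control 2. In both 1451756_at and 1419300_at the lowest Control array was Control 1. The fourth, 1440926_at, was at 0.090 ± 0.119, with 5.491 to 5.932 and 5.660 to 5.911, and at 0.012 without Control 1. After removal of the group means, the correlation between Flt1 probe sets over the 8 arrays ranged from −0.19 to 0.92, so some pairs followed each other and others did not.

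Flt4, the VEGF-C receptor of tip cells and lymphatic vessels, had a log2 fold change of −0.23 ± 0.144 (SE) by probe set 1444052_at and 0.0031 ± 0.0901 by 1421442_at (limma adjusted p = 1 for both). The first read 6.394, 6.401, 6.256 and 6.155 in Control and 6.335, 6.057, 5.654 and 6.228 in Z/Edn2. Its lowest value was that of Z/Edn2 3, the array that stood apart, without which the log2 fold change was −0.095. The second probe set ran from 5.653 to 5.723 in Control and from 5.575 to 5.885 in Z/Edn2, and its 95% interval was 0.87-fold to 1.15-fold. Lyve1, listed as a lymphatic marker, was at 5.27 ± 0.625 in Control and 5.12 ± 0.645 in Z/Edn2 (SD, n = 4 each). Of the 3 measured markers of that list, 0 passed in limma or had an unadjusted p under 0.05. By mean signal Lyve1, Prox1 and Pdpn lay above 29.9%, 82.1% and 95.2% of probe sets. The cells of the bulk retina that gave these signals were not identified, so the values are no measure of lymphatic vessels.

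Among the 3 roles the neuropilins had the narrowest range of log2 fold changes. Nrp1, the co-receptor of VEGF-A and semaphorin 3A, had 4 probe sets between −0.073 and 0.056. Its brightest, 1448943_at, read 8.471, 8.486, 8.645 and 8.729 in Control and 8.567, 8.324, 8.695 and 8.815 in Z/Edn2 (log2 fold change 0.017 ± 0.118, SE), and the 95% interval ran from 0.84-fold to 1.22-fold. With arrays centred on their medians it was −0.010. Probe set 1418084_at spread most, from 7.370 to 7.965 in Control and from 7.249 to 8.112 in Z/Edn2, and in both groups replicate 1 was the lowest. Nrp2, the co-receptor of VEGF-C and semaphorin 3F, had 4 probe sets between −0.010 and 0.084. Its brightest, 1435349_at, read 7.561, 7.412, 7.711 and 7.520 in Control and 7.520, 7.368, 7.920 and 7.729 in Z/Edn2, with a 95% interval from 0.87-fold to 1.29-fold. Its 1426528_at probe set had the narrowest interval of the 22 on the log2 scale, −0.18 to 0.16, with 7.030 to 7.101 in Control and 6.990 to 7.161 in Z/Edn2. All 8 neuropilin probe sets had a limma adjusted p of 1. The 4 Nrp1 probe sets varied together from array to array, with correlations of 0.46 to 0.89 over the 8 arrays after removal of the group means, and those of Nrp2 less so, with −0.06 to 0.40. These arrays share their RMA normalization.

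**Figure D2:**
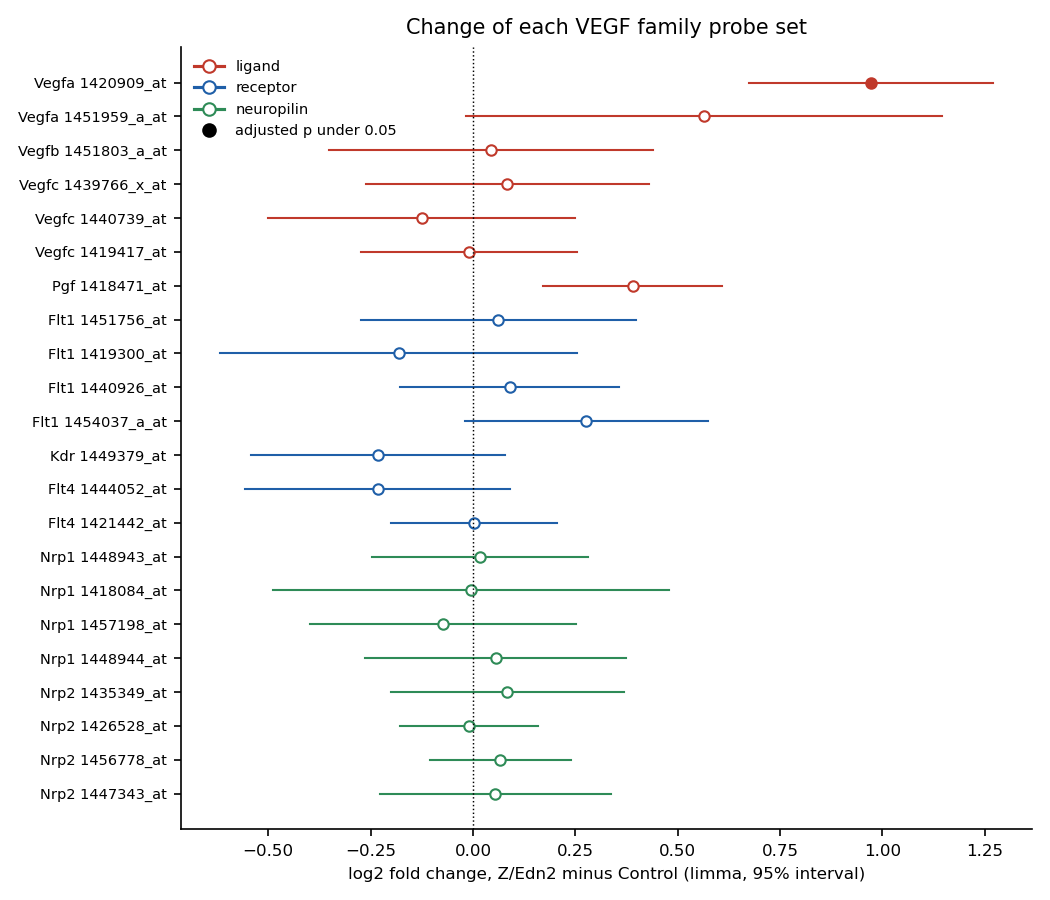
Log2 fold change (Z/Edn2 minus Control, x axis) of the 22 member probe sets with 95% limma intervals, coloured by role, filled where the adjusted p is under 0.05. The filled point is Vegfa 1420909_at at 0.97, and the intervals of all 15 receptor and neuropilin probe sets cross 0.

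The replicate number was also used as a block, since same-numbered arrays correlated at 0.80, 0.43, 0.18 and 0.31 after removal of the group means. Arrays of unlike number reached up to 0.41, and the labels do not say what same-numbered arrays share. With the block 1 of 22 member probe sets was higher, again that of Vegfa, and 0 were lower, against 0.217% and 0.0515% of all probe sets. An unadjusted p under 0.05 was then reached by 4 member probe sets, all higher (both of Vegfa, Pgf and Flt1 1454037_a_at), where 5.63% of all probe sets were higher and 2.91% lower.

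Ligand and receptor were also set against each other within each array, as Vegfa 1420909_at minus Kdr, around the Control mean of this difference. It was 0.24, 0.039, −0.26 and −0.020 in Control 1 to 4 and 1.39, 1.66, 0.82 and 0.94 in Z/Edn2 1 to 4, so that the groups did not overlap. The Z/Edn2 mean was 1.20 ± 0.39 and the Control SD 0.208 (n = 4 each). Most of this mean was the log2 fold change of Vegfa, 0.97, which alone separated the groups, while that of Kdr, −0.23, did not. With the other Vegfa probe set the difference was 0.80 ± 0.654, and Z/Edn2 3 and Z/Edn2 4, at 0.44 and 0.13, were below Control 1 at 0.77. No p is given for this difference, as its genes were picked with earlier results known.

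**Figure D3:**
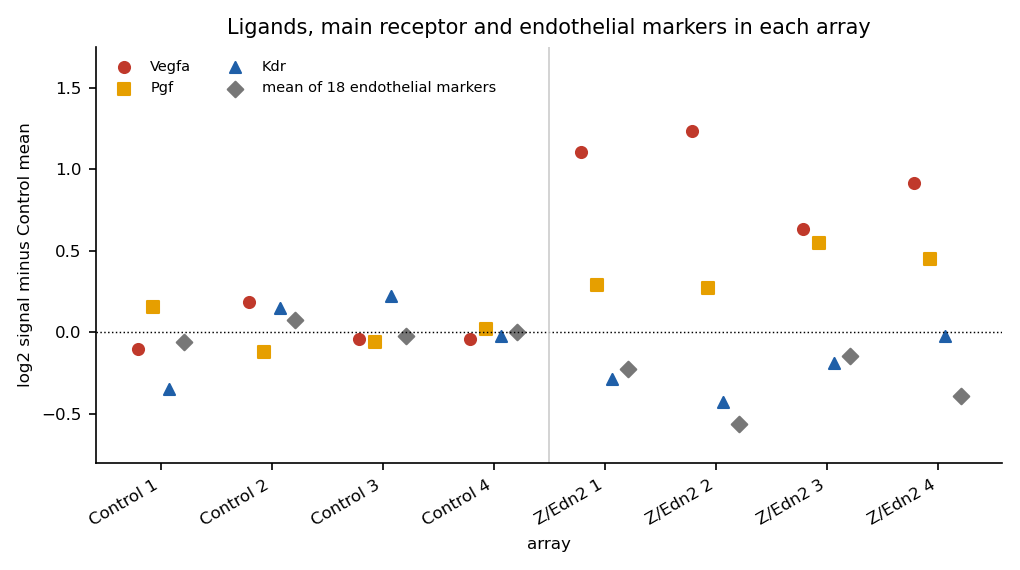
Log2 signal minus its Control mean (y axis) in each of the 8 arrays (x axis) for Vegfa, Pgf, Kdr and the mean of 18 endothelial markers. In Z/Edn2 arrays Vegfa sits between 0.63 and 1.23, Pgf stays above 0, and Kdr sits between −0.43 and −0.023, inside or just below its Control range of −0.35 to 0.22.

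The cell types that make and receive VEGF were followed by markers without the members. Of 18 endothelial markers, 2 fell (Tek and Ptprb), 0 rose, 7 had an unadjusted p under 0.05, all lower, and the median log2 fold change was −0.23, beside 0.014 over all 18193 genes by 1 probe set each. Their summed signal on the linear scale was 1620 to 1840 in Control and 1170 to 1490 in Z/Edn2, which did not overlap, while Kdr did. Cldn5, the brightest of them, weighs most in this sum, at 8.18 in Control and 7.26 in Z/Edn2. Its log2 fold change was −0.91 ± 0.178 (SE; limma adjusted p = 0.215). Emcn, Ecscr and Pecam1 lay the other way, Emcn at 0.157 and Ecscr at 0.163. The part of the endothelial markers in the Kdr values was not tested. Tek, the angiopoietin receptor, fell by 1.54 on the log2 scale (limma adjusted p = 0.00418, or 0.196 without the pair of replicate 4 and 0.105 without that of replicate 2), whereas Pecam1, the adhesion molecule CD31, was at 0.063 ± 0.202 (SE). Among the VEGF-A sources, the 4 astrocyte markers had a summed signal of 666 to 896 in Control and 916 to 1070 in Z/Edn2. Of them 0 were past the threshold and 2 were higher at an unadjusted p under 0.05 (limma). A linear sum weighs bright probe sets most, here Pdgfra, at 9.06 in Control against 6.05 to 6.46 for the others. The log2 fold changes were 0.49 for Pdgfra, 0.46 for Aldh1l1, 0.17 for Gfap and −0.32 for S100b, so the markers did not all move one way. For the 6 Mueller glia markers the summed signal was 8610 to 11400 and 7960 to 9820, and 0 passed, with 1 lower at an unadjusted p under 0.05. The retinal ganglion cell sum was 4960 to 6680 and 4200 to 4520, with 0 of 7 markers past the threshold and 4 lower at an unadjusted p under 0.05. Sums for mural cells, horizontal cells, microglia and macrophages, photoreceptors, retinal pigment epithelium and lens overlapped between the groups, with 0 markers past the limma threshold in each. At an unadjusted p under 0.05 there was 1 lower marker of microglia and macrophages, 1 higher of lens and 0 of the others. Their part in the Vegfa values was not tested.

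Of 89 measured genes in 6 lists of other pathway members, 4 were higher (Egln3, Kcne3, Apln and Esm1) and 1 lower (Ptprb), with a median log2 fold change of 0.041. Over all genes by 1 probe set each, 0.121% were higher and 0.0495% lower, and 2.67% were higher and 1.01% lower without overlap. The lists were written with earlier results of these arrays known, so their counts are no independent evidence of direction.

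Among 9 genes of oxygen sensing upstream of Vegfa, 1 rose and 0 fell, with a median of 0.045. Egln3, a prolyl hydroxylase that marks hypoxia-inducible factors for decay and is itself induced by them, read 6.29, 5.58, 5.46 and 5.25 in Control and 7.42, 7.19, 7.19 and 6.89 in Z/Edn2. Its log2 fold change was 1.53 ± 0.21 (SE; limma adjusted p = 0.0404). Its other probe set was at 0.77, with groups that did not overlap either (adjusted p = 0.205). Egln1, the main oxygen-sensing hydroxylase, was at 0.39 (adjusted p = 0.406), with all Z/Edn2 arrays above all Control arrays. Its other probe set was at 0.47 (adjusted p = 1) with overlapping groups, since Control 1, at 8.31, exceeded 3 of the Z/Edn2 arrays. Vhl, which recognises the hydroxylated factor, was at 0.12 and Hif1a, the factor itself, at −0.11, both with adjusted p = 1. The Egln3 call held without Control 1 (adjusted p = 0.00309) and was lost in the other 7 fits that left out an array, with 0.188 without Control 3 as the highest. It was also lost without 3 of the 4 same-numbered pairs, up to 0.539.

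Vegfd, the VEGF ligand that binds Flt4 in the mouse and that the set of 9 left out, stood among 10 measured genes of ligand processing and binding, of which 0 passed in limma and 2 were higher at an unadjusted p under 0.05 (Vegfd and Ccbe1). All 3 of its probe sets separated the groups. The brightest read 4.63, 4.29, 4.32 and 4.57 in Control and 5.20, 5.09, 6.25 and 5.43 in Z/Edn2, with a log2 fold change of 1.04 ± 0.23 (SE; limma unadjusted p = 0.00126, adjusted p = 0.362). The others were at 0.95 (adjusted p = 0.173) and 0.60 (adjusted p = 0.307), with Control signals of 3.28 to 3.49 and 2.84 to 3.24. In the Control arrays the first lay just above the highest TrpnX signal of each array, and the second did so except in Control 1. Signals so close to these controls may understate the differences. The highest value of the brightest probe set was that of Z/Edn2 3, without which the log2 fold change was 0.79. Ccbe1, which helps to cleave VEGF-C into its active form, was at 0.38 (adjusted p = 1), with no overlap in its brightest of 4 probe sets and overlap in the others. Thbs1, an inhibitor of angiogenesis, was at 0.23 and Hspg2, the matrix proteoglycan perlecan, at 0.10, both with overlapping groups.

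Of 11 receptor partners at the membrane, 1 fell and 0 rose. This was Ptprb, also among the endothelial markers, the phosphatase that dampens Kdr and Tek signals, at 6.35, 6.36, 6.35 and 6.43 in Control and 5.65, 5.28, 5.80 and 5.64 in Z/Edn2 (log2 fold change −0.78 ± 0.111, SE; limma adjusted p = 0.0463). Another probe set was at −1.07 (adjusted p = 0.0635) and the third at 0.22. The call stood at 0.0499 without Z/Edn2 2 and was lost in the other 7 fits that left out an array, with 0.227 without Control 4 as the highest. It was lost without any of the 4 same-numbered pairs (up to 0.705), with the mean of its probe sets (0.283), without Control 1, Z/Edn2 1 and Z/Edn2 3 (0.0658), and narrowly with eBayes trend and robust settings (0.052) and with all non-control probe sets (0.056). Efnb2, an ephrin that aids VEGF receptor uptake, was at 0.23, Itgb1, an integrin, at 0.24, and Dab2, an endocytic adaptor, at −0.17, each with overlapping groups.

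Of 9 semaphorin and plexin partners of the neuropilins, 0 passed in limma, 0 had an unadjusted p under 0.05, and the median was −0.038. Sema3a, the Nrp1-binding repellent, was at −0.25 ± 0.136 (SE), Plxnd1, a plexin of endothelial cells, at 0.23 ± 0.151, Plxna2 at −0.13 and Sema3c at 0.18, each with limma adjusted p = 1 and overlapping groups. Of 31 genes of intracellular VEGF receptor signalling 0 passed in limma and 2 were lower at an unadjusted p under 0.05 (Hspb1 and Prkcb), with a median of −0.032. Hspb1, a heat shock protein phosphorylated downstream of Kdr, was at −0.36 ± 0.104 (adjusted p = 0.842), and Prkcb, a protein kinase C, at −0.21 ± 0.0874 (adjusted p = 1), both without overlap. Map2k1, the kinase MEK1, was at 0.23, and Vav3, a guanine nucleotide exchange factor, at −0.25.

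Of 19 genes listed here as induced by VEGF in endothelial cells, 3 rose and 0 fell, with a median of 0.22. Groups did not overlap for 9, all higher, against 2.67% of all genes. Whether VEGF induces each of them was not tested. This list too was written with earlier results of these arrays known, so the count is no independent evidence of a VEGF response. Which cells gave these signals was not tested. Kcne3, a potassium channel subunit of tip cells, read 3.11, 2.86, 2.93 and 3.06 in Control and 4.73, 4.64, 4.68 and 4.55 in Z/Edn2 (log2 fold change 1.66 ± 0.0864, SE; limma adjusted p = 0.000116). Its Control signals lay within the range of the TrpnX controls, and against the highest TrpnX signal of each Control array it was at least 2.76-fold higher. Its call was kept in all omissions of an array or a pair. Apln, the tip cell peptide apelin, was at 7.04 to 7.20 and 7.74 to 7.80 (log2 fold change 0.63 ± 0.0729; adjusted p = 0.0166), and lost its call in 6 of 8 omissions of an array, up to 0.0931 without Control 3, without any of the 4 pairs, up to 0.329, and without the 3 arrays Control 1, Z/Edn2 1 and Z/Edn2 3 together (0.104). Esm1, a proteoglycan secreted by tip cells, was at 2.74 to 3.12 and 3.76 to 4.78 (1.39 ± 0.2; adjusted p = 0.0463), and by the same bound was at least 2.3-fold higher. It lost its call in 7 of 8, up to 0.195 without Z/Edn2 3, without 3 of the 4 pairs, up to 0.557, without those 3 arrays (0.376), with arrays centred on their medians (0.0543) and with all non-control probe sets (0.056). Igfbp3, which binds insulin-like growth factors, was at 1.35 ± 0.29 (adjusted p = 0.329), without overlap in either of its 2 probe sets. Dll4, the Notch ligand that VEGF induces in tip cells, was at 0.22 ± 0.138 (adjusted p = 1) and was picked by eye after its value was known. Picked in the same way were genes of this list that lay nearer 0, with overlapping groups. Rcan1, Nr4a1 and Nr4a2 were at −0.043, −0.025 and −0.069, and Dusp5, Pdgfb and Egr3 at 0.028, 0.047 and 0.11.

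**Figure D4:**
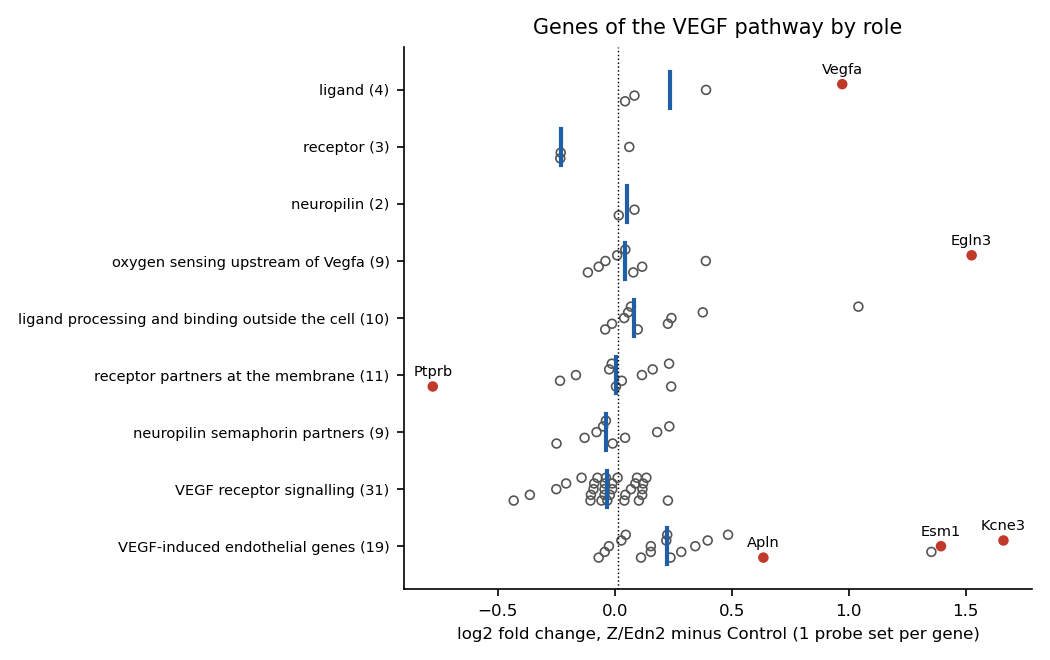
Log2 fold change (Z/Edn2 minus Control, x axis) of each measured gene of the VEGF family and of 6 further pathway lists (1 probe set per gene, number of genes in brackets), filled red and named where the limma adjusted p is under 0.05, with blue bars for list medians and a dotted line for the median of all genes, 0.014. The filled points are Vegfa, Egln3, Ptprb, Apln, Esm1 and Kcne3.

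The genes whose array-to-array deviations from the group means were most like those of Vegfa 1420909_at, over the 8 arrays and among 9092 genes of at least median signal, were Synpr, Cisd1, Acyp2, Rhot1 and Spcs1, with correlations of 0.956 to 0.968. For Kdr they were Axin1, Lpp, Lrpprc, Apbb2 and Wasf2, with 0.959 to 0.986. A correlation of 0.9 or more was reached by 28 genes for Vegfa and 29 for Kdr. With 8 arrays that share one normalization, such values describe the arrays only, and none of these 10 genes had an adjusted p under 1.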

How the data were processed

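The log2 values of the deposited table were made by the authors with RMA (version not given in the sources used here), per the submitters' processing notes. The authors' deposited comparison table lists a log2 difference, a signed fold (a score) and a raw p-value whose test is not named. Its log2 fold changes equalled Z/Edn2 minus Control means within 4.9e-08. Values were used as deposited. Of 45101 probe sets, 64 array controls, 932 with several symbols and 9160 with none were left out. Genes were compared over the other 34945 with limma 3.58.1 (lmFit, eBayes, two-sided) in R 4.3.3. The script was tested on simulated data. At-least folds set each Control array at the higher of its own signal and its highest TrpnX control signal, which were taken as background. For list counts each gene used its probe set with the highest mean. Named were all member probe sets, called genes and up to 4 with the smallest p of each pathway list, and the 5 genes most like Vegfa and Kdr. Same-numbered arrays correlated at 0.80, 0.43, 0.18 and 0.31 after removal of group means, each above 0.1, although Control 3 with Z/Edn2 4 reached 0.41, so a fit with the replicate block was run too. The labels call the arrays biological replicates. The limma p-values set a group difference against the spread between the pools of a group, moderated over all fitted probe sets. Members, lists and tests were chosen with earlier results of these data known. The number of arrays limits the precision.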

Additional observations from a re-analysis of the deposited data

How the results depend on the processing

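The 21 alternatives left out arrays or pairs, or changed the variance model, weights, centring, filter or probe sets. The count of 1 higher member probe set, Vegfa, became 0 with arrays centred on their medians and with the mean of each gene's probe sets. It was 0 to 1 when an array or a same-numbered pair was left out. With the replicate block it stayed at 1, and the block changed no call of a member or of a named pathway gene. The count of 0 lower members did not change. Over all probe sets 31 were higher and 9 lower, which became 76 and 18 with the replicate block, 49 higher with array weights, 19 and 2 with only the probe sets above the median signal, and 3 to 34 higher and 0 to 7 lower when an array or a pair was left out. Vegfa minus Kdr, 1.20, was 0.80 with the other Vegfa probe set, an alternative added after seeing the data. The authors' deposited p-values and limma's both gave 2 member probe sets under an unadjusted p of 0.05. The cause of these shifts was not tested. The direction held in all alternatives for 9 of 22 member probe sets, including both of Vegfa, Pgf and Kdr, and turned at least once for 13, all near 0. With array weights the log2 fold change was −0.014 for Vegfb, −0.004 for Flt4 1421442_at, −0.016 for Nrp1 1448943_at, −0.005 for Nrp1 1448944_at and 0.011 for Nrp2 1426528_at. Without Control 1, Z/Edn2 1 and Z/Edn2 3 it was −0.118 for Vegfb, −0.092 for Flt1 1451756_at, −0.028 for Flt4 1421442_at, −0.051 and −0.047 for Nrp1 1448943_at and 1448944_at, and 0.014 and −0.014 for Nrp2 1426528_at and 1447343_at. Centring gave −0.025 for Flt4 1421442_at and −0.010 for Nrp1 1448943_at, and the mean of probe sets −0.017 for Vegfc and −0.001 for Nrp1. When an array or a pair was left out, the range was −0.127 to 0.134 for Vegfb, −0.028 to 0.207, −0.241 to 0.006 and −0.082 to 0.052 for Vegfc 1439766_x_at, 1440739_at and 1419417_at, −0.051 to 0.171 for Flt1 1451756_at, −0.057 to 0.053 for Flt4 1421442_at, −0.054 to 0.109, −0.133 to 0.160, −0.145 to 0.072 and −0.027 to 0.150 for Nrp1 1448943_at, 1418084_at, 1457198_at and 1448944_at, and −0.012 to 0.172, −0.049 to 0.024 and −0.036 to 0.135 for Nrp2 1435349_at, 1426528_at and 1447343_at. Of 44 groups of 4 values, none held an outlying array by Dixon's test. With 4 values its critical ratio is 0.829, so it has little power and clears no array.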
